A study of Rattus norvegicus with 2 samples.

Results

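The transcripts described here are 10 genes of the lipid-associated macrophage programme, in the liver of rats fed a choline-deficient diet or a control diet. They are Trem2, Tyrobp, Gpnmb, Cd9, Cd63, Ctsd, Ctsb, Spp1, Lgals3 and Mmp12. They were chosen by gene name with the measured diet ratios of these same arrays already known, so their ratios are given as a description with no test. All 10 were on the array, with 11 probes in 20 of its 43379 gene spots, and 9 were among the 18196 genes that passed the filter on dim probes. Cd9 did not pass it.

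Lipid-associated macrophages are phagocytes that gather around dying and lipid-laden cells in fat tissue, in plaques and in fatty or scarring liver, where they are also called scar-associated macrophages. They are known mainly from mouse and human tissue. Their programme depends on the surface receptor TREM2, which binds lipids, lipoproteins and cell debris and signals through the adaptor TYROBP, and it combines membrane proteins of the phagosome and lysosome with lysosomal proteases and secreted proteins that act on the surrounding matrix. Several of its genes are also used by other liver cells: bile duct cells make osteopontin, the product of Spp1, and every cell with lysosomes uses cathepsins.

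Total RNA of liver was compared after 10 days on the choline-deficient diet or on the control diet, in Wistar rats (spelled Wister in the labels) that were 7 weeks old. Both diets were hybridised together to each of 2 two-colour Agilent arrays, with choline-deficient RNA in the dye Cy5 and control RNA in Cy3 on array 1, and choline-deficient RNA in Cy3 and control RNA in Cy5 on array 2. The labels name 4 choline-deficient rats but not how many animals a channel held, nor whether array 2 carried new extracts or those of array 1 with the dyes exchanged. P-values therefore rest on the spread between the 2 arrays, largely pooled over genes, which is possibly technical alone. Both arrays lay on 1 slide in 1 scan, between 53.5% and 63.2% of the gene spots of a channel were well above background, and no gene spot was saturated. Whole liver was measured, so a change in the number of cells of a type and a change in RNA per cell cannot be told apart.

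A value on these arrays is read from a probe, a designed stretch of 60 bases of the transcript, which defines what was measured. Shown are the probes of 5 genes that had a forward reading frame without a stop codon and no AATAAA, with Tyrobp left out. They are written 5′ to 3′ in the sense of the transcript, in lower case throughout since no base is singled out, with their places in rat build rn4, the one used in the array files. The Trem2 probe lay at chr9:8059065-8059124 on the minus strand, the Spp1 probe at chr14:6422382-6422441 on the minus strand, and the Cd63 probe at chr7:2210440-2210499 on the plus strand. The other two spread over more genome than their own length. The Mmp12 probe covered 357 bases of genome at chr8:4259057-4259413 on the plus strand, and the Cd9 probe 8573 bases at chr4:162283341-162291913 on the minus strand.
Trem2 probe: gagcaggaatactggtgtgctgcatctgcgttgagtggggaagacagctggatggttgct
Spp1 probe: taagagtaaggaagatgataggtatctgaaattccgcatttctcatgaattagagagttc
Mmp12 probe: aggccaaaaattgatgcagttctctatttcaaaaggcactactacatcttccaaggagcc
Cd9 probe: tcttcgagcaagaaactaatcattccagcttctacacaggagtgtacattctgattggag
Cd63 probe: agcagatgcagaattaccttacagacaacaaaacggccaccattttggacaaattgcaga
The remaining probes lay at chr4:77182198-77182257 on the plus strand for Gpnmb, at chr15:23338947-23339006 on the plus strand for Lgals3, at chr1:202619669-202619727 on the minus strand for Ctsd and at chr15:42423613-42423672 on the plus strand for Ctsb. Exon and UTR annotation of rn4 was not used here.

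The genes of the programme split into a group with large ratios and a group near 0. Gpnmb, Spp1, Mmp12, Lgals3 and Trem2 were higher in choline-deficient liver on both arrays, by 1.91-fold to 2.93-fold on average. Tyrobp and Cd63 were higher on both arrays by 1.25-fold and 1.16-fold, while Ctsd and Ctsb took opposite signs on the 2 arrays. Of the 9 genes tested, 7 were higher on both arrays, a sign pattern that 29.4% of all genes tested had. Gpnmb, Spp1 and Mmp12 were at least 2-fold higher on both arrays, a size that 0.192% of all genes tested reached (35 genes). Limma placed 6 of the 9 past an adjusted p of 0.05 on the higher side, where 4.37% of all genes stood (795 genes), and 0 on the lower side, where 4.25% stood (773 genes). The genes were picked on this contrast, so nothing is read from these counts. The median log2 ratio of the 9 was 0.93, in a range of -0.18 to 1.55, against 0.0002 over all genes tested.

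**Figure D1:**
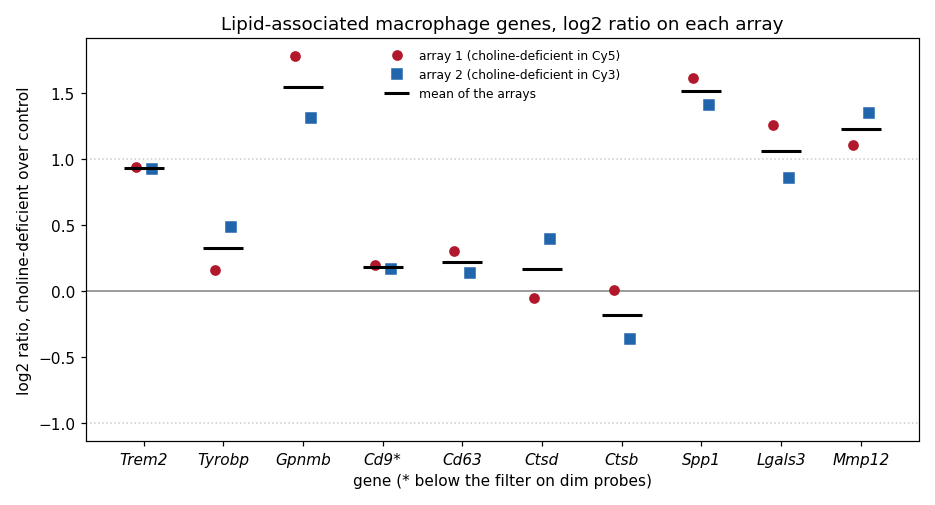
Log2 ratio of choline-deficient over control liver for the probe of each gene on array 1 (circles) and array 2 (squares), with the mean of the arrays as a bar. Gpnmb, Spp1, Mmp12, Lgals3 and Trem2 have means from 0.93 to 1.55, and the other genes lie between -0.18 and 0.32.

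Trem2, the lipid-sensing receptor at the head of the programme, had a normalized level (log2 of background-corrected and scaled intensity) of 8.45 and 8.37 in choline-deficient liver on arrays 1 and 2, against 7.51 and 7.44 in control liver. Both choline-deficient values were above both control values, by nearly the same distance. Its log2 ratio was 0.94 on array 1 and 0.93 on array 2, a mean of 0.93 ± 0.01 (SD, n = 2 arrays) or 1.91-fold. This placed Trem2 at rank 63 of the 18196 genes by mean log2 ratio.

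The Trem2 probe was dim, and its mean ratio moved with the processing. Its raw intensity was 424 in choline-deficient RNA (Cy5, array 1) and 274 (Cy3, array 2), against 121 in control RNA (Cy3, array 1) and 211 (Cy5, array 2), over a local background of 46.0 to 54.0. The offset of 50 added during background correction draws the ratio of such a probe towards 0. With an offset of 16 the mean log2 ratio was 1.10. In the authors' deposited log ratio, which has no such offset and its own dye normalization, Trem2 stood at 2.13 on array 1 and 1.45 on array 2. The mean was 1.79, and the part of each step in this move was not tested.

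Tyrobp, the adaptor with the activating motif through which TREM2 signals, had normalized levels of 12.28 and 12.44 in choline-deficient liver, against 12.12 and 11.96 in control liver. The diets did not overlap, but the distance between them on array 1 was small. Ratios on the log2 scale were 0.16 on array 1 and 0.49 on array 2, a mean of 0.32 ± 0.23 (SD, n = 2) or 1.25-fold, at rank 683. The probe lay at chr1:85369110-85369169 on the plus strand of rn4. Limma's call for Tyrobp, from which nothing is read, did not hold with an offset of 16, without the filter on dim probes or with the mean of its probes. With the authors' deposited log ratio or with median centring, limma called 0 of the 9 genes of the programme tested.

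A second probe that the array files name Tyrobp lay 8 bases away at chr1:85369042-85369101 on the opposite strand. It was designed from an expressed sequence tag and was much nearer to background, with raw intensities of 165 and 140 in choline-deficient RNA and 111 and 167 in control RNA. Its log2 ratio was 0.14 on array 1 and -0.13 on array 2, so it had no direction of its own. Control RNA was not well above background at this probe on array 1. The mean of both probes gave 0.16 for Tyrobp.

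The other genes of the TREM2 and TYROBP signalling list had ratios near 0. Of 20 genes listed, 16 were on the array and 13 were tested. In either direction 0 passed the test, with a median log2 ratio of 0.04 against 0.0002 over all genes. Over all genes tested, 4.37% passed on the higher side and 4.25% on the lower. Fcer1g, the other adaptor of this type and a partner of Fc receptors, had the largest ratio of the list, 0.20 ± 0.07 (SD, n = 2). Syk, the kinase recruited by TYROBP, stood at 0.04 ± 0.07 and Plcg2, the phospholipase downstream of it, at -0.02 ± 0.10. Inpp5d, which encodes the phosphatase SHIP1 that counters the pathway, was at 0.16 ± 0.19. Trem1, a related receptor that also pairs with TYROBP, did not pass the filter on dim probes.

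Gpnmb encodes a transmembrane glycoprotein of lysosomes and melanosomes that marks phagocytes loaded with lipid. Its normalized level was 11.57 and 11.05 in choline-deficient liver on arrays 1 and 2, against 9.79 and 9.74 in control liver. The control values lay within 0.1 of each other, and both choline-deficient values were more than 1 unit above them. The log2 ratio was 1.78 on array 1 and 1.32 on array 2, a mean of 1.55 ± 0.33 (SD, n = 2) or 2.93-fold. Gpnmb had the largest mean ratio of the programme and rank 10 of the 18196 genes, and also the widest spread between the arrays among the 9 genes tested.

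The tetraspanins Cd63 and Cd9 belong to a family that organises receptors and integrins in the membrane. Cd63, the tetraspanin of late endosomes and lysosomes, had normalized levels of 11.57 and 11.33 in choline-deficient liver, against 11.27 and 11.19 in control liver. The diets did not overlap, and the lower choline-deficient value lay close to the higher control value. On the log2 scale the ratio was 0.30 on array 1 and 0.14 on array 2, a mean of 0.22 ± 0.11 (SD, n = 2) or 1.16-fold.

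Cd9, a surface tetraspanin used to mark lipid-associated and scar-associated macrophages in mouse and human tissue, was hardly detected by its probe. It was well above background only in the Cy5 channel of each array, which held choline-deficient RNA on array 1 and control RNA on array 2. Normalized levels were 7.16 and 7.08 in choline-deficient liver, against 6.96 and 6.91 in control liver. Cd9 had a log2 ratio of 0.20 on array 1 and 0.17 on array 2, while the authors' deposited log ratio gave 1.31 and 0.25. A difference in Cd9 was not measurable at this signal.

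Of 15 other tetraspanin genes tested, 1 rose (4.37% over all genes), 0 fell (4.25% over all genes), and the median log2 ratio was -0.07. Tspan6 rose by 0.36 ± 0.11 on the log2 scale (SD, n = 2, limma adjusted p = 0.0133), and its other probe stood at 0.33. Cd81, a partner of CD9 in tetraspanin complexes, had a log2 ratio of -0.12 ± 0.04 and did not pass the test.

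Ctsd and Ctsb encode cathepsin D, an aspartic protease, and cathepsin B, a cysteine protease, the digestive enzymes of the lysosome. Ctsd had normalized levels of 14.50 and 14.83 in choline-deficient liver, against 14.56 and 14.43 in control liver. The diets overlapped, since choline-deficient liver was the lower on array 1 and the higher on array 2, with log2 ratios of -0.05 and 0.39. The mean was 0.17 ± 0.32 (SD, n = 2).

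Ctsb had normalized levels of 15.82 and 15.46 in choline-deficient liver, against 15.82 and 15.83 in control liver. Only the choline-deficient value of array 2 stood below the other three, and the diets overlapped. The log2 ratios were 0.01 and -0.37, a mean of -0.18 ± 0.26. For both cathepsins the spread between the arrays exceeded the mean ratio.

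Among 13 other cathepsin and cystatin genes tested, 2 rose (4.37% over all genes) and 0 fell (4.25% over all genes), with a median log2 ratio of 0.06. Ctsl1, the array's name for cathepsin L, rose by 0.44 ± 0.17 on the log2 scale (limma adjusted p = 0.00162), and its other probe stood at 0.34. Cstb, which encodes the cytosolic cathepsin inhibitor cystatin B, rose by 0.33 ± 0.03 (adjusted p = 0.0262), a call that did not hold with an offset of 16 or without the filter on dim probes. Of 35 other lysosome genes tested, 0 rose and 1 fell, against the same shares over all genes, with a median of 0.02. The one that fell was Lamp2, a glycoprotein of the lysosomal membrane, at -0.38 ± 0.14 (adjusted p = 0.00756).

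**Figure D2:**
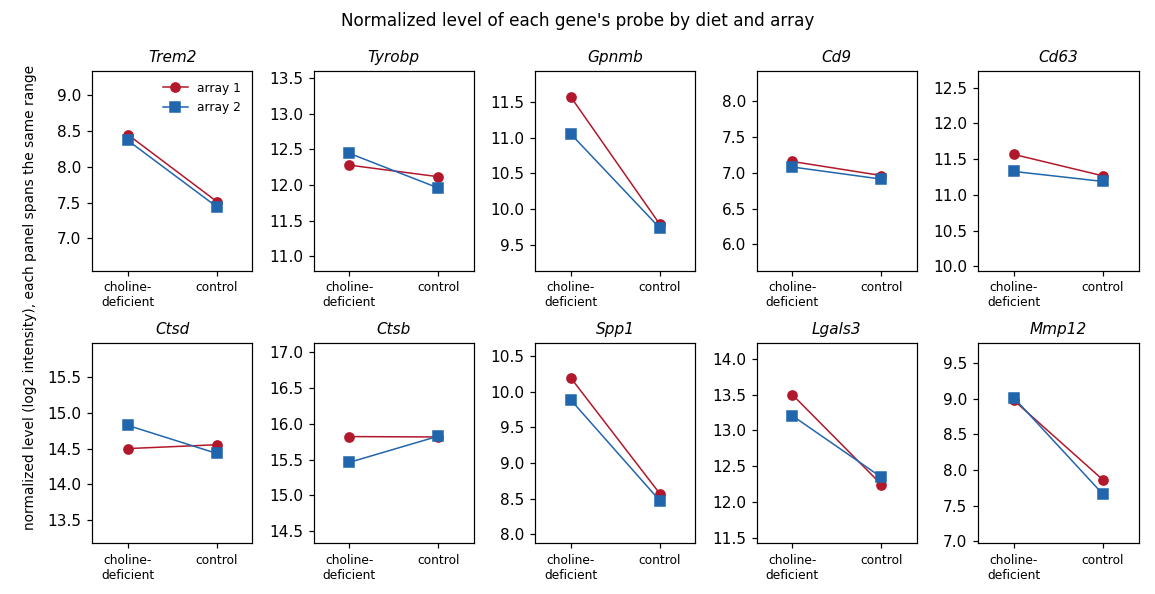
Normalized level (log2 intensity) of each gene's probe in choline-deficient liver, left, and control liver, right, with a line joining the channels of an array. Each panel spans the same range of log2 units, so slopes can be compared between panels but heights cannot. The lines of Gpnmb, Spp1, Mmp12, Lgals3 and Trem2 are steep on both arrays, and those of Ctsd and Ctsb are flat on array 1 and run opposite ways on array 2.

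Spp1 encodes osteopontin, a secreted phosphoprotein that binds integrins and CD44 and is a product of scar-associated macrophages as well as of bile duct cells. Its normalized level was 10.19 and 9.88 in choline-deficient liver on arrays 1 and 2, against 8.57 and 8.47 in control liver. The diets were well apart on both arrays. The log2 ratio was 1.62 on array 1 and 1.41 on array 2, a mean of 1.52 ± 0.15 (SD, n = 2) or 2.86-fold, at rank 11.

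Spp1 was the only gene of the 10 with repeated spots, 10 on each array. Their log2 ratios had a lowest, median and highest value of 1.54, 1.59 and 1.74 on array 1, and of 1.33, 1.42 and 1.48 on array 2. The spots of the arrays did not overlap, so the difference between the arrays was larger than the spread among spots, whose SD was 0.068 on array 1 and 0.059 on array 2. All 20 spots were more than 1 log2 unit higher in choline-deficient RNA.

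Of the 7 osteopontin receptor genes tested, 1 rose (4.37% over all genes) and 0 fell (4.25% over all genes), with a median log2 ratio of 0.05. Cd44, the hyaluronan receptor that also binds osteopontin, rose by 0.71 ± 0.08 on the log2 scale (SD, n = 2, limma adjusted p = 1.83e-07), with 0.65 on array 1 and 0.76 on array 2. The integrin chains that form the main osteopontin receptors did not pass the test, with 0.12 ± 0.19 for Itgav and 0.11 ± 0.07 for Itgb1. Itgb3 did not pass the filter on dim probes.

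Lgals3 encodes galectin-3, a lectin that binds galactosides on glycoproteins, is secreted by macrophages and gathers on damaged lysosomes. Its normalized level was 13.50 and 13.20 in choline-deficient liver, against 12.24 and 12.34 in control liver. The diets did not overlap. This gave a log2 ratio of 1.26 on array 1 and 0.86 on array 2, a mean of 1.06 ± 0.28 (SD, n = 2) or 2.08-fold, at rank 37. The probe was bright, and its mean barely moved, to 1.07 with an offset of 16 and 1.06 in the authors' deposited log ratio.

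Lgals1, which encodes galectin-1, was the gene that rose among 7 other galectin genes tested, by 0.51 ± 0.08 on the log2 scale (SD, n = 2, limma adjusted p = 0.000143). None of these galectin genes fell, and their median log2 ratio was 0.07. Over all genes tested, 4.37% rose and 4.25% fell. Lgals3bp, which encodes a secreted ligand of galectin-3, stood at 0.22 ± 0.02 and did not pass the test.

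Mmp12 encodes macrophage metalloelastase, a secreted protease that cuts elastin. Its normalized level was 8.98 and 9.01 in choline-deficient liver on arrays 1 and 2, against 7.86 and 7.66 in control liver. The choline-deficient values were close together and both lay more than 1 unit above control. The log2 ratio was 1.11 on array 1 and 1.35 on array 2, a mean of 1.23 ± 0.17 (SD, n = 2) or 2.35-fold, at rank 22. As with Trem2, the signal was low, and the mean was 1.39 with an offset of 16 and 1.92 in the authors' deposited log ratio.

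Agreement between the arrays varied from gene to gene. The SD between the arrays ran from 0.0058 for Trem2 to 0.33 for Gpnmb. In the authors' deposited log ratio the arrays were further apart for Trem2, at 2.13 and 1.45. With the settings of the text, 8 of the 9 genes tested had an SD above the median of all genes, 0.097. Of these, 4 lay above the 90th percentile of all genes, 0.24. Array 1 gave the larger ratio for 6 of the 9, and array 2 for Tyrobp, Ctsd and Mmp12. Gpnmb, Spp1 and Mmp12 were at least 2-fold higher in choline-deficient liver on each array, and Lgals3 reached that size on array 1 only.

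**Figure D3:**
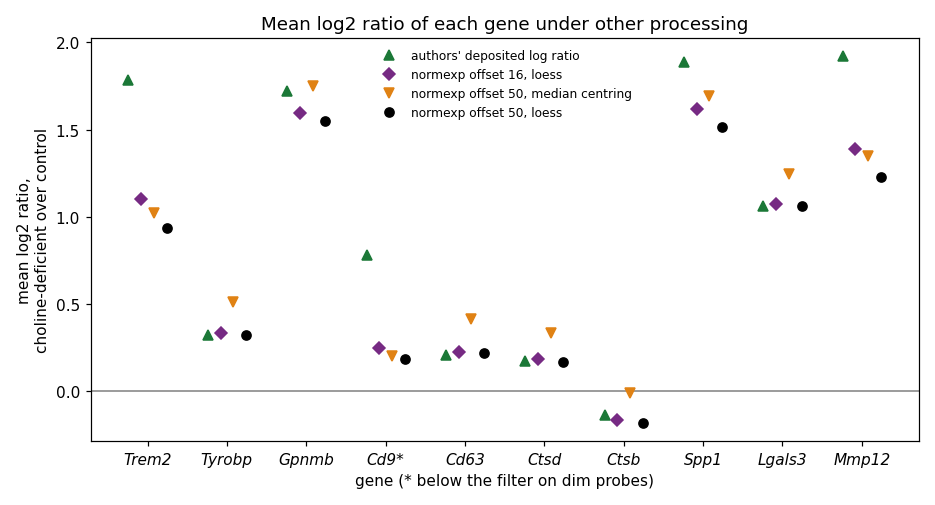
Mean log2 ratio of choline-deficient over control liver for each gene with the authors' deposited log ratio, an offset of 16, median centring in place of loess, and the settings used in the text (black). The values of Trem2, Mmp12, Cd9 and Spp1 spread most, with Trem2 between 0.93 and 1.79, and Lgals3 lies between 1.06 and 1.25.

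The correction for dye and intensity also mattered. With loess, the median log2 ratio of the 18196 genes tested was 0.0129 on array 1 and -0.00411 on array 2. With median centring in its place, these medians were 0.65 and -0.41. Median centring subtracts a single value per array, taken over all gene spots, including the dim ones left out of the test. Under that setting Gpnmb stood at 2.84 on array 1 and 0.66 on array 2, and Lgals3 at 2.50 and -0.0040. Lgals3, Tyrobp, Cd63, Ctsd and Ctsb then had opposite signs on the arrays, as did the medians of all genes tested. Of the 9 genes, 0 were at least 2-fold higher on both, a size that 11 of the 18196 genes tested reached. The means kept their order of size, with Gpnmb at 1.75, Spp1 at 1.69, Mmp12 at 1.35, Lgals3 at 1.25 and Trem2 at 1.02.

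Promoters are shown for the genes whose transcripts were higher together, with those of Cd63 and Ctsd, which did not pass the test, for contrast. The windows are the 250 bases before the start of each gene, from RefSeq on rat build GRCr8, 5′ to 3′ on the strand of the gene, and 7 of the 10 genes were matched. Lgals3, Tyrobp and Ctsb had no entry. Capitals mark matches, on either strand, to CACGTG (the E-box), TCACGTGA and TCATGTGA (elements known to bind the lysosome and melanocyte factors TFEB, TFE3 and MITF), TGANTCA (the AP-1 element), GAGGAA (a core bound by the macrophage factor PU.1) or TATAAA (the core promoter element bound by TBP). TCACGTGA contains CACGTG, so a match to the longer element is also a match to the shorter.
Gpnmb promoter: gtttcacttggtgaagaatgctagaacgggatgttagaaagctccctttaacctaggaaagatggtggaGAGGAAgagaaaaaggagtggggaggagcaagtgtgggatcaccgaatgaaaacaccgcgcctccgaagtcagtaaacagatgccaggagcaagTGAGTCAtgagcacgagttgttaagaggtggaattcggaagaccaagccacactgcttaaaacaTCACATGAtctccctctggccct
Trem2 promoter: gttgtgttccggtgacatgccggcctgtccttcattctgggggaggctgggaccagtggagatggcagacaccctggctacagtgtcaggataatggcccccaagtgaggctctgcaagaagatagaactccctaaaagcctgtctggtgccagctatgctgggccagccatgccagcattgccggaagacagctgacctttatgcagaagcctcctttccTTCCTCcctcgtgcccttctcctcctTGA
Spp1 promoter: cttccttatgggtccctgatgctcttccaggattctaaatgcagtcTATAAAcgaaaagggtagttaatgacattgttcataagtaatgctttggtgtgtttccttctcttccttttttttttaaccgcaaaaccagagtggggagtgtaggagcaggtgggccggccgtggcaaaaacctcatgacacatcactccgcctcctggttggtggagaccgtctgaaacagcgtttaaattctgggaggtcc
Mmp12 promoter: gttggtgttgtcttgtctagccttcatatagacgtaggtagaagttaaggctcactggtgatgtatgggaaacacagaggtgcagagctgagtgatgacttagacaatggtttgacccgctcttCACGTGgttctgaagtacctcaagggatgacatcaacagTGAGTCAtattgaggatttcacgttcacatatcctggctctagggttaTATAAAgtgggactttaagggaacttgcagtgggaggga
Cd63 promoter: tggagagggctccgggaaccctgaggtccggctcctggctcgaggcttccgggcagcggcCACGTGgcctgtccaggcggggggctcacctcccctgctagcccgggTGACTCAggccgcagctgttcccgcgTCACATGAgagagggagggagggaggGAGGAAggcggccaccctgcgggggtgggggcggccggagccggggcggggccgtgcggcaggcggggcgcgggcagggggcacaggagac
Ctsd promoter: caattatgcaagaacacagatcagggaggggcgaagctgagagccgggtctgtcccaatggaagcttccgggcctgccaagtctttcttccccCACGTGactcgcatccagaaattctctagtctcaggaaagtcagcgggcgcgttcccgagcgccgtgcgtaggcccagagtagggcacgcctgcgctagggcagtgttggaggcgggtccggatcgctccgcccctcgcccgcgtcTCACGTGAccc
These windows lie at chr4:79340878-79341127 (plus strand) for Gpnmb, chr9:20151780-20152029 (minus) for Trem2, chr14:5619805-5620054 (minus) for Spp1, chr8:12866402-12866651 (plus) for Mmp12, chr7:1921894-1922143 (plus) for Cd63 and chr1:206968822-206969071 (minus) for Ctsd.

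The search ran over these 250 bases and the 50 that follow the start. The AP-1 element TGANTCA was found in the promoters of Gpnmb, Trem2, Mmp12 and Cd63, 4 of 7, and in 7.33% of the 33469 promoters of the table. In Gpnmb and in Mmp12 it began at base -87 from the start, and in Trem2 at -3, running across the start. CACGTG was found in 3 of 7 (Mmp12, Cd63 and Ctsd, against 6.42% of all), TCATGTGA in 2 of 7 (Gpnmb and Cd63, against 1.16%) and TCACGTGA in 1 of 7 (Ctsd, against 0.777%). GAGGAA was found in 4 of 7 (Gpnmb, Trem2, Cd63 and Cd9, against 27.6%), and TATAAA in 2 of 7 (Spp1 and Mmp12, against 14.2%).

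The TATAAA of Mmp12 began at -39, and that of Spp1 at -204. The promoters of Gpnmb, Spp1, Trem2 and Mmp12 held 4 to 7 CG pairs, near the median of 5 over all promoters, while those of Cd63, Cd9 and Ctsd held 16 to 22. Matches are letters in a window and no evidence of binding, since no factor was measured.

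Gene lists around the programme were described next, by counts and medians beside those of all genes. The lists were drawn up with earlier results of these data known. Over the 8 lists 129 genes were tested, of which 14 rose (10.9%) and 2 fell (1.55%), with a median log2 ratio of 0.03, against 4.37%, 4.25% and 0.0002 over all genes. None of these calls held in limma on the authors' deposited log ratio (0 genes called in all, 2122 at an unadjusted p under 0.05) or with median centring (0 called, 19 at an unadjusted p under 0.05).

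Among these 8 lists the largest ratios were those of fatty acid binding proteins, in the list of lipid handling in macrophages. Of 17 tested, 4 rose and 0 fell, with a median log2 ratio of -0.07. Fabp4, the fatty acid binding protein of adipocytes and macrophages, rose by 1.23 ± 0.21 on the log2 scale (limma adjusted p = 3.21e-15), with control RNA well above background on 1 array only. Fabp5, a related binding protein of macrophages and epithelia, rose by 1.02 ± 0.00 (adjusted p = 1.83e-12).

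Lpl, which encodes the lipoprotein lipase that frees fatty acids from lipoproteins, rose by 0.61 ± 0.01 on the log2 scale (limma adjusted p = 5.05e-06), and its other probe stood at 0.31. Ch25h, which makes an oxysterol from cholesterol, rose by 0.45 ± 0.11 (adjusted p = 0.00118), again with control RNA above background on 1 array only. Cd36, a fatty acid receptor, and Apoe, an apolipoprotein and a ligand of TREM2, did not pass the test, at 0.10 ± 0.05 and -0.29 ± 0.41.

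Of 22 other genes of scar-associated and lipid-associated macrophages tested, 5 rose and 1 fell, with a median log2 ratio of 0.12. S100a4, a calcium-binding protein of motile cells, rose by 0.98 ± 0.11 on the log2 scale (limma adjusted p = 9.32e-12), but its dimmer probes disagreed, at -0.06 and 0.76. Il1rn, the antagonist of the interleukin-1 receptor, rose by 0.85 ± 0.04 (adjusted p = 8.36e-10). S100a6, another calcium-binding protein, rose by 0.58 ± 0.17 (adjusted p = 1.59e-05).

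Capg, an actin-capping protein of macrophages, rose by 0.53 ± 0.11 on the log2 scale (limma adjusted p = 8.48e-05), and Vim, the intermediate filament of mesenchymal cells and macrophages, was the remaining gene that rose. Igf1, a growth factor made by hepatocytes as well as by macrophages, fell by 0.47 on the log2 scale (SD 0.03, adjusted p = 0.000564), and its other probes stood between -0.54 and -0.18. Mmp9 and Mmp13, related metalloproteinases, were not well above background in either diet on either array.

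**Figure D4:**
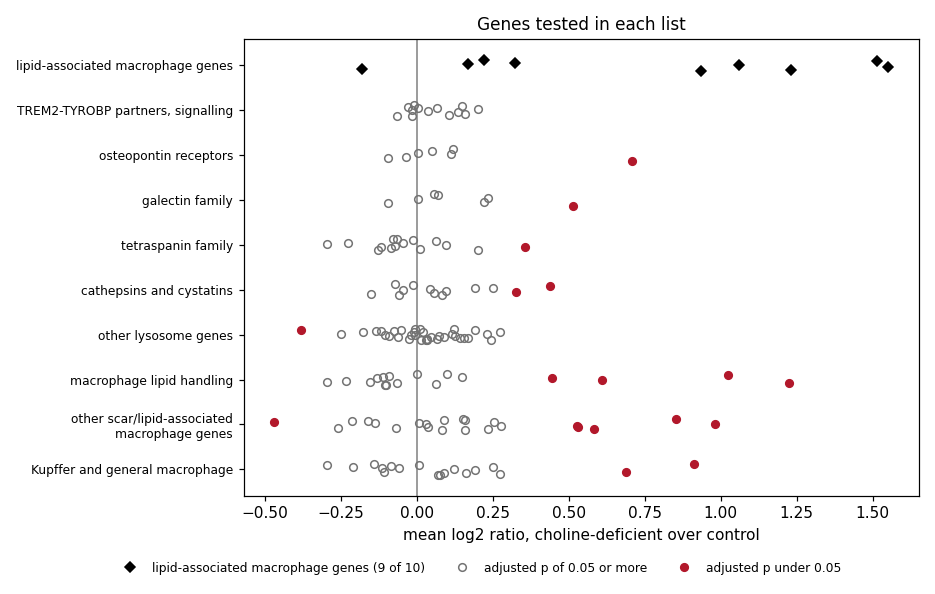
Mean log2 ratio of choline-deficient over control liver for each gene tested in the lists around the programme, 1 point a gene. Diamonds are 9 of the 10 genes of the programme, given with no test, filled circles are genes past an adjusted p of 0.05 in limma, and open circles are the rest. Most list genes lie close to 0, and the signalling list has no filled point.

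Most markers of resident and general macrophages had ratios near 0. Of 18 tested, 2 rose (4.37% over all genes) and 0 fell (4.25% over all genes), in a range of -0.29 to 0.91 with a median log2 ratio of 0.07. Marco, a scavenger receptor, rose by 0.91 ± 0.13 (limma adjusted p = 1.17e-10) and Lyz2, the lysozyme of myeloid cells, by 0.69 ± 0.24 (adjusted p = 5.91e-07). Cd68 stood at 0.16 ± 0.14, Csf1r at 0.12 ± 0.00 and Emr1, the array's name for the macrophage surface receptor Adgre1, at -0.09 ± 0.02, and these did not pass the test. The Kupffer cell markers Clec4f and Timd4 were at -0.29 ± 0.23 and 0.09 ± 0.05. Between 18 and 19 of the 19 macrophage markers on the array were well above background in each channel.

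Marker lists of other cells were counted in the same way, against shares of 4.37% higher and 4.25% lower over all genes. Of 12 cell cycle genes tested 11 rose, with a median log2 ratio of 0.68 and a highest value of 1.34 for Cdk1, the kinase of mitosis. Of 12 stellate cell and fibroblast markers 5 rose and 0 fell, with a median log2 ratio of 0.05. Of these, Col1a1, a collagen chain, was the highest at 0.53 ± 0.02 (limma adjusted p = 9.11e-05), although its other probes stood at -0.06 and 0.01 and its call did not hold with the mean of its probes. Of 12 hepatocyte markers 3 rose and 3 fell, from -0.67 for Fgb, a fibrinogen chain, to 0.57 for Tat, an amino acid enzyme.

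Of 7 cholangiocyte markers tested 0 passed the test, in a range of -0.29 to 0.27, with Krt19, a bile duct keratin, at -0.02 ± 0.11. Of 13 monocyte, neutrophil and dendritic cell markers, 6 were tested, 1 rose and 1 fell (S100a8 at 0.32, a call that did not hold without the filter on dim probes, and Cd14 at -0.41), and Csf3r, Cxcr2, Itgal, Elane, Flt3 and Ccr7 were not well above background in either diet on either array. Endothelial markers gave 0 higher and 1 lower of 10, and T, NK and B cell markers 0 higher and 1 lower of 8, where the lower one, Gzma, was not called with an offset of 16 or without the filter. The part of other cell types in the ratios of the 10 genes was not tested.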

How the data were processed

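The deposited scanner files hold the raw spot and background intensity of each dye, extracted by the authors with Agilent Feature Extraction 9.5.3.1, per the file headers (9.5 in the submitters' processing notes). Beside these stands the authors' own deposited log10 ratio, Cy5 over Cy3, background-subtracted and dye-normalized per the file headers, and a deposited p-value from an error model within 1 array, which supports no statement here. The deposited series table equalled that ratio in 45018 of 45018 rows on both arrays (within 1%). Ratios were turned to choline-deficient over control by the dyes in the labels.

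Background was corrected by normexp (offset 50) in limma 3.58.1 under R 4.3.3, and each array was loess-normalized, control spots having weight 0, to give log2 ratios. The offset draws ratios of dim probes towards 0. Flagged spots were left out (174 and 151, none of them of the 10 genes), spots of a probe were averaged, and a probe was kept if the same diet was well above background on array 1 and on array 2, for 1 diet or both (22367 of 41012 probes). The brightest kept probe stood for a gene. Levels per channel follow scaling between arrays (Aquantile) and are compared within a probe only. All genes were tested against 0 with lmFit and eBayes, two-sided, with Benjamini-Hochberg adjustment over 18196 genes. The test had 1 residual and 63.3 prior degrees of freedom, so spread was largely pooled over genes. It was also run on simulated data, with the deviations between the arrays shuffled over genes. That run does not vouch for the p-values given here. Genes and lists were chosen with earlier results of these data known. Named list genes are the up to 4 of largest absolute mean ratio past the test in a list, plus receptors and partners of Trem2, Spp1 and Lgals3. Cd81, Cd36, Apoe, Mmp9, Mmp13, Trem1, Vim, Igf1 and the cell type markers named by value were chosen after their values were seen. Alternatives were an offset of 16, the deposited log ratio, median centring, no filter on dim probes, the mean of a gene's probes and each array alone. Precision is limited by the number of arrays.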

Additional observations from a re-analysis of the deposited data

How the results depend on the processing

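Limma called 795 genes higher and 773 lower in choline-deficient liver with the settings of the text. With the authors' deposited log ratio it called 0 higher and 0 lower (2122 genes at an unadjusted p under 0.05), and with median centring 0 higher and 0 lower (19 at an unadjusted p under 0.05). The cause was not tested. It called 625 higher and 565 lower with an offset of 16, 618 and 605 without the filter on dim probes, and 765 and 759 with the mean of a gene's probes. The number of the 10 genes at least 2-fold higher on both arrays was 3 in the text, 4 with an offset of 16 or the deposited log ratio, and 0 with median centring. Over all 18196 genes tested that number also moved. It was 35 in the text, 46 with an offset of 16, 112 with the deposited log ratio and 11 with median centring. With either array left out, Gpnmb, Spp1 and Mmp12 stayed at least 2-fold higher, and Lgals3 reached that size on array 1 alone. The mean log2 ratios of Gpnmb, Spp1, Mmp12, Lgals3, Trem2 and Tyrobp kept their sign under every alternative run. That of Ctsd was -0.05 on array 1 alone and that of Ctsb 0.01, opposite to their means. The largest moves came with the deposited log ratio, to 1.79 for Trem2, 1.92 for Mmp12, 1.89 for Spp1 and 0.78 for Cd9, whose signal was too close to background to measure a difference. Of 44 list and marker genes called with the settings of the text, 41 were still called with the mean of probes, 38 with an offset of 16 and 37 without the filter, but 0 with the deposited log ratio or median centring. The counts of called genes per list and direction were equal to those of the text in 28, 26 and 24 of 32 cases under the first 3 of these settings and differed by at most 2 genes in the others. Genes not named above whose calls were lost under 1 or more of these were Col3a1, Dcn, Alb, Ass1 and Mcm2.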
